A study of Mus musculus with 19 samples.

Results

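The step from 6.25 to 12.5 mg/kg/day of dibenz[a,h]anthracene was examined in mouse liver, across every mouse microRNA (miRNA) on an Agilent array. The 9 arrays compared were all arrays whose titles give these doses, 5 for the low and 4 for the middle dose, out of 19 in the series. Each array held liver RNA of 1 mouse. The animals were 10-week-old males of the MutaMouse strain (transgenic mouse strain 40.6), which carries a reporter gene for counting mutations. Every animal of both groups received the compound in olive oil by gavage each day for 28 days, and was killed for liver 3 days after dosing ended. Per the labels a dose group had 5 animals, of which 4 at the middle dose have an array analysed here. No array of animals given olive oil alone entered the main comparison, so it shows a difference between 2 doses and not a response to the compound. Such arrays entered the alternative fit of all 19 arrays. Arrays are named here by group and by the sample number in their titles, as in low 3 or middle 14.

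A miRNA is a short RNA that lowers the translation and stability of messenger RNAs that pair with it, mainly through its seed, bases 2 to 8 from the 5′ end. Dibenz[a,h]anthracene is a polycyclic aromatic hydrocarbon that binds the aryl hydrocarbon receptor, a ligand-activated transcription factor, and is turned by the enzymes this receptor induces into products that bind DNA. DNA damage activates the transcription factor p53, and miR-34a is a textbook p53 target whose own targets include cell cycle genes. In liver most miRNA comes from hepatocytes, for which miR-122 is the defining marker.

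The mature sequences below come from RefSeq's table for GRCm38.p6. They are those of the miRNAs on which the comparison turns and of the relatives tested here that share their seed. The seed is in capitals.

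miR-34a: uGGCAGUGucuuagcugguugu
miR-26b: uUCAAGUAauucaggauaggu
miR-26a: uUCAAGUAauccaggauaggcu
miR-31: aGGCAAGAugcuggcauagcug
miR-29a: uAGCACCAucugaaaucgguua
miR-29b: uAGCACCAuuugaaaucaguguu
miR-29c: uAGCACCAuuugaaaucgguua
miR-148a: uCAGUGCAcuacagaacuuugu
miR-148b: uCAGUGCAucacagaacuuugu
miR-152: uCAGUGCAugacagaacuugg
miR-10a: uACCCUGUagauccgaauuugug
miR-10b: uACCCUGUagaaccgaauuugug

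Levels are log2 signals scaled to each array's 75th percentile, taken over probes that all 9 arrays detected, with a floor at -4.67 below which values have no order. A difference is the middle dose minus the low dose on this log2 scale, estimated with the slide as a block. All 3 slides carried both groups: slide 1 held low 3 with middle 5 and 6, slide 2 held low 11 and 12 with middle 14, and slide 3 held low 18 and 24 with middle 20. Nothing in the labels ties arrays of different groups to each other. The number of arrays limits the precision.

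The middle dose arrays had lower mean values on the array-wide measures of signal. A middle dose array detected 131 to 147 miRNAs and a low dose array 144 to 174, with means of 137.2 ± 6.95 (SD, n = 4) and 161.8 ± 12.2 (SD, n = 5). The exact permutation p, two-sided, was 0.0238 over all arrangements and 0.037 within slides, where 0.037 is the smallest value that 27 arrangements allow. The labelling spike-ins, synthetic RNAs added before labelling, had a mean log2 intensity of 10.53 ± 0.21 (SD, n = 5) in the low group and 10.12 ± 0.29 (SD, n = 4) in the middle group (exact permutation p = 0.0476, and 0.037 within slides). Scaling signal, the 75th percentile, averaged 205 ± 50.6 (SD, n = 4) against 286 ± 74.9 (SD, n = 5) intensity units (exact permutation p = 0.103), and the hybridization spike-ins gave an exact permutation p of 0.452. The smallest p adjusted over these 8 tests was 0.0952. Most low dose arrays lay in the first row of their slide and most middle dose arrays in the second, so signal, row and dose moved together. A limma fit with the array signal as a covariate and one with slide and row as blocks both gave 0 calls each way, with miR-34a differences of 1.25 (adjusted p = 0.253) and 1.44 (adjusted p = 0.295). Pairs of arrays correlated across miRNAs, which are not independent replicates, at r of 0.980 to 0.997 within the low dose, 0.974 to 0.992 within the middle dose and 0.969 to 0.996 between doses. Low 3 stood apart for some miRNAs, and its highest correlation with the other group, 0.996, was with middle 6 of the same slide.

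**Figure D1:**
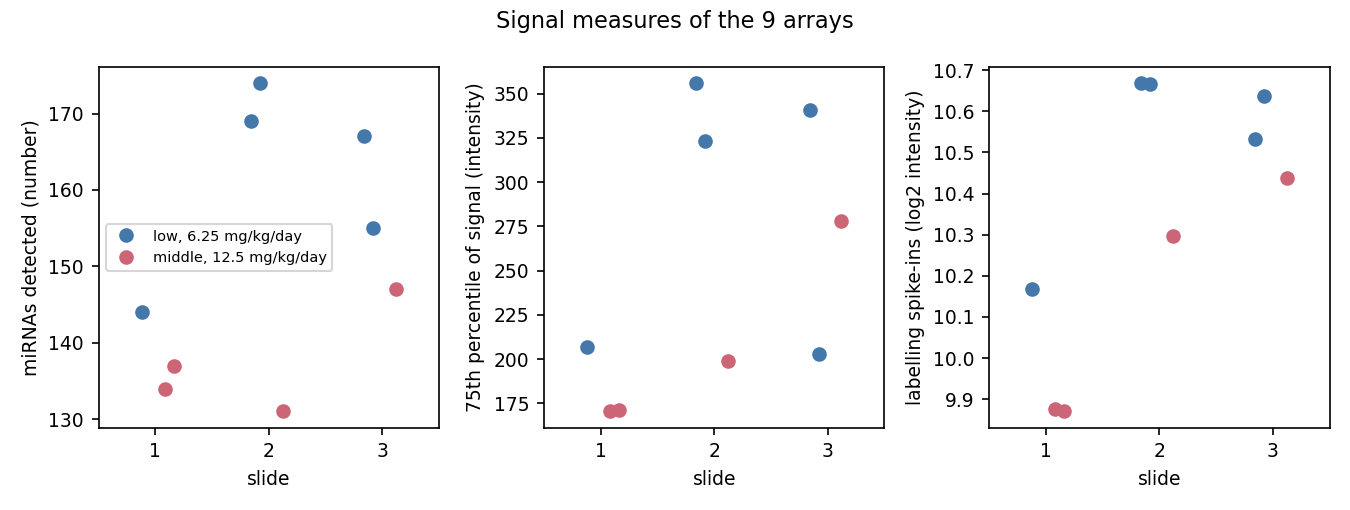
Signal measures of each array (y axes: number of miRNAs detected, 75th percentile of signal in intensity units, log2 intensity of the labelling spike-ins) by slide (x axis), blue for the low dose and red for the middle dose. On every slide the middle dose arrays detected fewer miRNAs, 131 to 147, and had dimmer labelling spike-ins than the low dose arrays.

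Of 696 mouse miRNAs, 157 were detected on at least 4 of the 9 arrays and were tested. None of them passed the test: 0 were higher and 0 were lower at the middle dose at a Benjamini-Hochberg adjusted p under 0.05 in limma (0% of 157 each way), and the smallest adjusted p was 0.174. Without adjustment, 15 higher (9.55%) and 8 lower (5.1%) had p under 0.05. The median difference was 0.02, the quartiles were -0.09 and 0.14, 89 had a positive and 68 a negative value, and the range ran from -0.68 for miR-802 to 1.45 for miR-34a. Differences beyond 1.5-fold were found for 6 miRNAs, and miR-34a was the 1 miRNA beyond 2-fold. The direction of the small differences depended on the scaling: with the 75th percentile taken over all probes, background probes included, the median difference was -0.38 and limma called 1 higher and 69 lower at an adjusted p under 0.05. With no scaling the median difference was -0.28 and there were 0 calls. The sign of a small difference is therefore relative to a median that the scaling sets.

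With the percentile over probes detected on all 9 arrays, the doses were compared closely for most miRNAs. The 95% interval of the difference reached a median of 0.25 to either side, which is 1.19-fold, and lay within 1.5-fold either way for 120 of 157 miRNAs (76.4%) and within 2-fold for 147 (93.6%). For the other 10, miR-34a among them, a difference of more than 2-fold in at least 1 direction lay inside the interval. The intervals do not include the choice of scaling. Taking the percentile over all probes moved the miR-34a and miR-26b differences by -0.44 each. Values at the floor also narrow an interval, as for miR-340-5p on 3 low and 4 middle dose arrays. Among the 125 miRNAs detected on all 9 arrays, 94 (75.2%) lay within 1.5-fold and 118 (94.4%) within 2-fold. Of the 157, 148 were detected in both groups, 9 in the low dose alone and 0 in the middle dose alone.

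**Figure D2:**
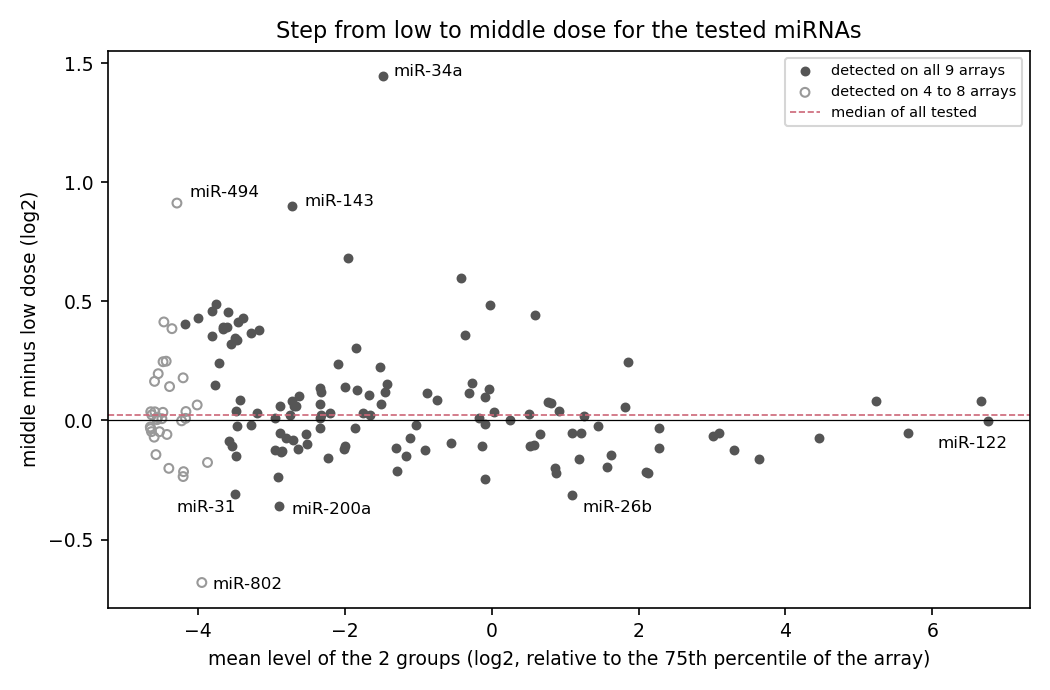
Difference between the doses (y axis, middle minus low, log2) against the mean level of the 2 groups (x axis, log2, scaled to the array's 75th percentile) for 157 miRNAs, filled where detected on all 9 arrays. miR-34a stands highest at 1.45 and miR-802 lowest at -0.68, and the dashed line marks the median of 0.02.

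miR-34a was the miRNA with the highest difference and the smallest p. Its level on the low dose arrays was -0.62 on low 3, -2.83 on low 11, -2.81 on low 12, -2.92 on low 18 and -2.90 on low 24. On the middle dose arrays it was 0.12 on middle 5, -0.37 on middle 6, -0.40 on middle 14 and -1.48 on middle 20. The groups overlapped through low 3, which lay above middle 20, while the other 4 low dose arrays sat together at -2.86 ± 0.05 (SD, n = 4), below every middle dose array. The raw signal, without any scaling, was 134 intensity units on low 3 and 27.1 to 50.1 on the other low dose arrays, against 99.7 to 185 at the middle dose.

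The difference in miR-34a was 1.45 (SE 0.31, 95% interval 0.72 to 2.17), or 2.72-fold higher at the middle dose, with an unadjusted p of 0.00199 and a Benjamini-Hochberg adjusted p of 0.174 in limma. The values differed between slides, at 0.49 on slide 1, which held low 3, 2.41 on slide 2 and 1.43 on slide 3, so the middle dose was higher on all 3. An exact permutation test of the group means, two-sided, gave p = 0.0238 for the plain difference of 1.88, and within slides it gave 0.037, the smallest value possible there. The call differed between settings. Without low 3 the difference was 1.92 with a limma adjusted p of 0.0121. With low 3 kept, miR-34a passed in the fit of all 19 arrays, at 1.59 with a limma adjusted p of 0.0107. There the scaling and the spread come from all dose groups, animals given olive oil alone included. miR-34a also passed with the 75th percentile over all probes, at 1.00 with a limma adjusted p of 0.0283. Under that scaling limma called 69 miRNAs lower, and miR-34a ranked 7 by p, with an unadjusted limma p of 0.00142. The second miR-34a probe gave 1.40. The other 4 members of the p53-linked miR-34 list on the array were detected on none of the 9 samples.

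**Figure D3:**
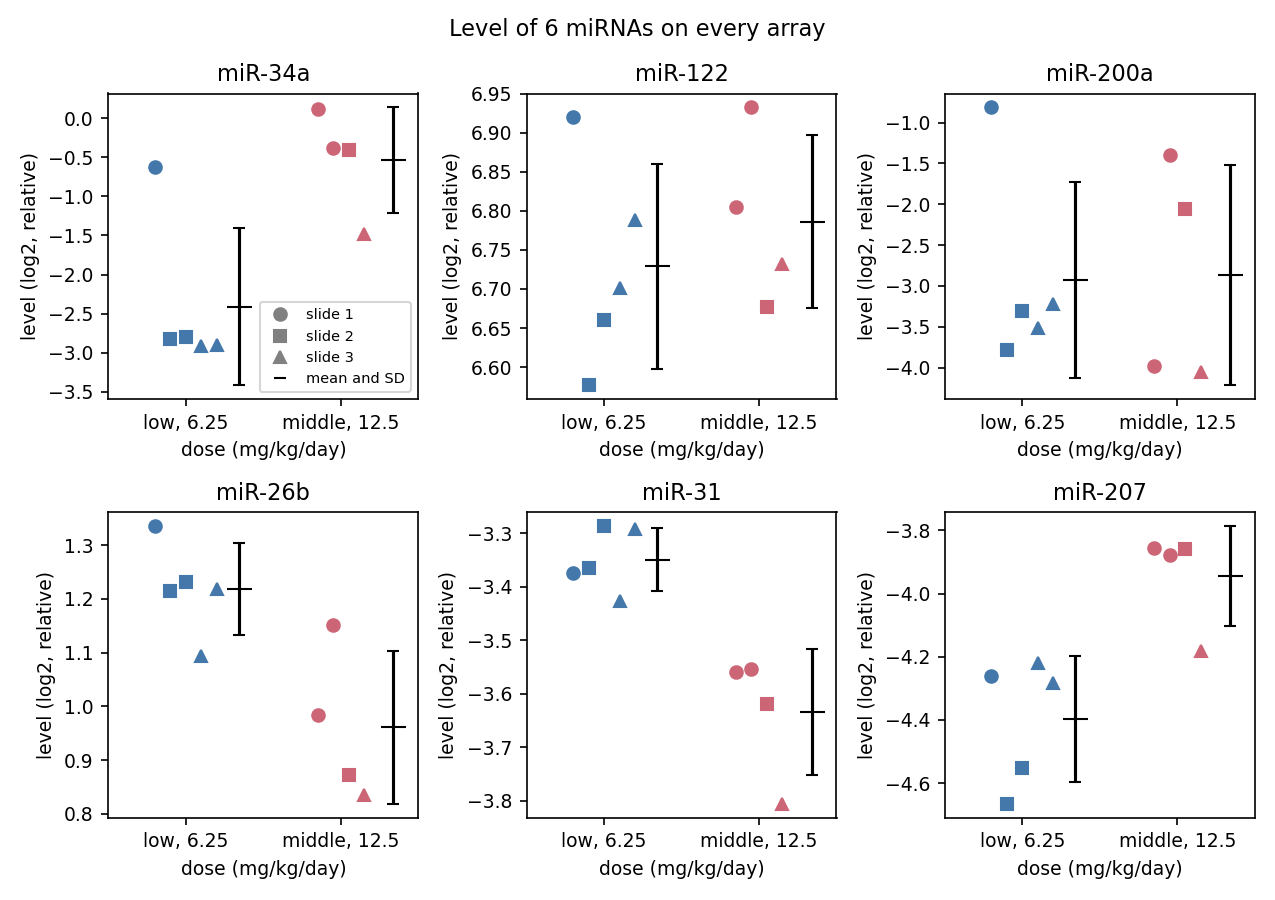
Level (y axis, log2 relative to the array's 75th percentile) of 6 miRNAs on each array by dose (x axis), with marker shapes for the slides and the mean ± SD beside each group. For miR-34a low 3 lies at -0.62 among the middle dose arrays while the other low dose arrays lie between -2.92 and -2.81, for miR-31 and miR-207 the groups do not overlap, and for miR-200a low 3, middle 6 and middle 14 lie apart from the rest.

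Low 3 was also high for miR-200a and miR-200b, epithelial miRNAs that in liver mark bile duct cells. Its level was -0.82 for miR-200a, against -3.78 to -3.23 on the other low dose arrays. Middle 6 and middle 14 were high as well, at -1.40 and -2.06, while middle 5 and middle 20 were at -3.97 and -4.05. miR-200b showed the same arrays apart, at -0.88 on low 3, -1.34 on middle 6 and -1.80 on middle 14. Both had the largest residual spread among miRNAs detected on all 9 arrays, 1.21 and 1.22, and their differences were -0.36 (95% interval -2.02 to 1.30) and -0.13. Without low 3, which takes slide 1 out of the estimate, these were 0.40 and 0.66. Of the other bile duct miRNAs tested, miR-429 was at -2.61 on low 3 and at the floor on the other low dose arrays. In contrast, miR-203 on low 3, at -3.74, was below the other low dose arrays (-3.38 to -3.04). miR-31 on low 3, at -3.37, lay among the other low dose arrays. The part of the miR-200 level in the miR-34a value of low 3 was not tested. In whole liver, fewer cells of a type and less RNA per cell cannot be told apart.

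The 10 miRNAs with the smallest p in the higher direction comprised miR-34a and 9 whose differences lay between 0.36 and 0.49, with limma adjusted p of 0.233 to 0.309. These 9 were miR-207, miR-298, miR-700, miR-2138_v15.0, miR-2141_v15.0, miR-10b, let-7f-1*, miR-290-3p and miR-2145. The groups did not overlap for 1 miRNA in this direction (0.637% of 157), miR-207. Its levels were -4.67 to -4.22 at the low dose, with a median of -4.28, and -3.88, -3.86, -3.86 and -4.18 at the middle dose, for a difference of 0.40. All 10 kept the sign on each of the 3 slides, as did 27 of all 157 (17.2%).

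For most of these 10 the raw signal hardly differed between the doses. Before scaling, miR-207 averaged 13.3 ± 3.14 intensity units (SD, n = 5) in the low group and 13.1 ± 1.75 (SD, n = 4) in the middle group. For miR-298 these were 17.0 ± 2.35 and 18.2 ± 1.39, for miR-700 14.5 ± 1.75 and 15.0 ± 1.29, and for let-7f-1* 19.2 ± 1.64 and 20.1 ± 2.07. The mean raw signal was lower at the middle dose for 139 of the 157 tested miRNAs, so a flat raw signal gives a positive difference after division by the 75th percentile. With the percentile over all probes 5 of the 10 turned negative, miR-207 to -0.02 and miR-2138_v15.0 to -0.09 among them, and with no scaling miR-207 stood at 0.10 and miR-298 at 0.17. miR-34a differed from these: its mean raw signal was 60.6 ± 42.2 (SD, n = 5) in the low group and 142 ± 35.7 (SD, n = 4) in the middle group.

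miR-143, a miRNA of smooth muscle and other stromal cells, had a difference of 0.90 (95% interval 0.02 to 1.77, limma adjusted p = 0.328). Its low dose levels lay between -3.26 and -2.79. On the middle dose arrays it was -3.52 on middle 5, -2.93 on middle 6, -1.61 on middle 14 and -1.51 on middle 20. Thus 2 of the 4 middle dose arrays stood above the low dose and 2 did not. Without low 3 the difference was 1.57 and the limma adjusted p 0.0114. Slide 1 then holds no low dose array, so that value leaves out both lower arrays, middle 5 and middle 6. Without middle 20, which takes slide 3 out of the estimate, the difference was 0.50.

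The 10 miRNAs with the smallest p in the lower direction had small differences, from -0.31 to -0.15, apart from miR-802 at -0.68. Their limma adjusted p ran from 0.174 to 0.362. All 10 had a lower mean raw signal at the middle dose as well. They included let-7g at -0.22, let-7f at -0.16, miR-29b at -0.22, miR-148a at -0.20, miR-101a at -0.25, miR-130a at -0.22 and miR-126-3p, the endothelial miRNA, at -0.15.

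miR-26b had the smallest p of the lower miRNAs. Its level was 1.34 on low 3, 1.21 on low 11, 1.23 on low 12, 1.09 on low 18 and 1.22 on low 24, and 0.98, 1.15, 0.87 and 0.84 on middle 5, 6, 14 and 20. Middle 6 lay above low 18, so the groups overlapped by 1 array on each side. The difference was -0.31 (SE 0.07, 95% interval -0.47 to -0.15), or 1.24-fold higher at the low dose, with a limma adjusted p of 0.174. It was alike on the 3 slides, at -0.27, -0.35 and -0.32, and was negative in every setting tried, from -0.76 to -0.21. Measured from the median of the 157 it was -0.34, and -0.37 with the percentile over all probes. Without low 24 it passed the test, with a limma adjusted p of 0.0482.

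miR-31, an epithelial miRNA, and miR-126-3p were the 2 lower miRNAs whose groups did not overlap (1.27% of 157). The miR-31 level was -3.43 to -3.29 at the low dose, with a median of -3.36, and -3.56, -3.55, -3.62 and -3.81 at the middle dose. The difference was -0.31 (SE 0.07, limma adjusted p = 0.196). Its spots were dim, with raw signals of 14.5 to 34.6 intensity units, and the value moved with how such spots were handled. It was 0.96 with outlier spots kept and 0.17 with another background correction, and the second miR-31 probe, detected on 4 arrays, gave -0.05. The miR-126-3p level was 1.64 to 1.74 in the low group and 1.44 to 1.60 in the middle group.

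miR-802, a hepatocyte-enriched miRNA, had the lowest difference but was detected on 7 arrays. Its low dose levels spread from -4.67 on low 24, at the floor, to -2.88 on low 11, and its middle dose levels from -4.67 on middle 14 to -3.60 on middle 5. The difference of -0.68 (95% interval -1.32 to -0.04, limma adjusted p = 0.328) came from -1.39 on slide 2, with -0.60 and -0.05 on slides 1 and 3. Its residual SD was 0.46.

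**Figure D4:**
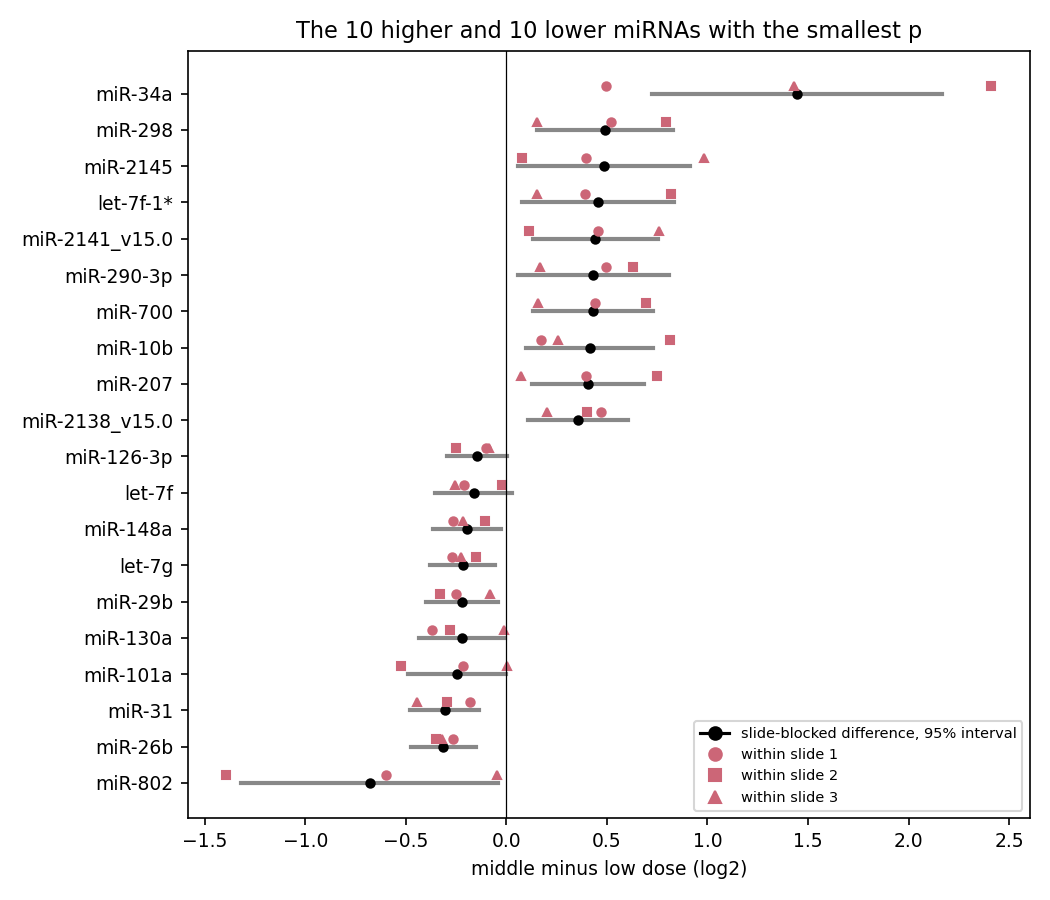
Difference between the doses (x axis, middle minus low, log2) for the 10 higher and 10 lower miRNAs with the smallest p (y axis). Black points and grey bars are slide-blocked values with 95% intervals, and red markers are the differences within slides 1, 2 and 3. The red markers of miR-34a spread from 0.49 to 2.41 and those of miR-26b from -0.35 to -0.27.

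The levels of the main liver miRNA overlapped between the doses. miR-122 had levels of 6.58 to 6.92 in the low group and 6.68 to 6.93 in the middle group, with a difference of -0.00 (95% interval -0.16 to 0.15), which is 0.897- to 1.11-fold. miR-21, which is raised in many injured tissues, had levels of 4.94 to 5.40 and 5.22 to 5.47, with a difference of 0.08 (95% interval -0.19 to 0.35). Of 8 injury and tumour miRNAs on the array, miR-221 was the other tested one, at -0.13. Of the 12 listed hepatocyte miRNAs tested, 9 had negative and 3 positive values, with a median of -0.07. Of these, 2, miR-148a and miR-101a, were lower at an unadjusted limma p under 0.05, beside 8 lower of all 157 (5.1%). miR-802, at -0.68, was not on this list. The miR-192 and miR-194 pair had -0.12 and -0.10. These values depended on the scaling. With the percentile over all probes miR-122 was at -0.45 (limma adjusted p = 0.0311) and miR-21 at -0.36. The hepatocyte median was then -0.52, beside -0.38 over all 157 tested. At an adjusted p under 0.05 limma called 9 of the 12 lower, beside 69 of the 157. With no scaling miR-122, miR-21 and the hepatocyte median were at -0.32, -0.24 and -0.39, with 0 calls, beside a median of -0.28 over all 157. In both settings miR-122 and miR-21 lay outside the intervals given above.

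With the percentile over probes detected on all arrays, families of broadly expressed miRNAs had medians within 0.2 of 0. The median over all tested miRNAs was 0.02, and none of the family members passed the test under this scaling. The 3 miR-29 miRNAs, which repress collagen and other matrix genes, were all negative, at -0.12, -0.22 and -0.16, and the 3 miRNAs of the miR-148a, miR-148b and miR-152 family were negative with a median of -0.18. Of the 9 let-7 and miR-98 miRNAs, which repress growth genes, 6 were negative and 3 positive, with a median of -0.05. That median was 0.02 under quantile normalization and 0.03 without middle 20. With the percentile over all probes it was -0.50, and without scaling -0.37, beside -0.38 and -0.28 over all 157. The 5 tested members of the miR-17 clusters had a median of -0.11, and 4 of them were negative. The miR-30 family had a median of -0.05, which was 0.04 without low 3. The miR-10 and miR-99/100 group had a median of -0.08 over 4 members.

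Some families had positive medians whose sign depended on the scaling. Taking the percentile over all probes moved the miR-34a and miR-26b differences by -0.44 each, and leaving out scaling moved both by -0.32, so small positive values turn negative under these settings by construction. The 3 miRNAs of the miR-106b cluster had a median of 0.10, with -0.34 when the percentile covered all probes and -0.22 without scaling. The 5 miR-23, miR-27 and miR-24 miRNAs were all positive with a median of 0.07, with -0.37 and -0.25 under the same settings. The miR-15/16 family had a median of 0.02, with -0.43 and -0.30, and the miR-125 family 0.16, with -0.22 and -0.12. Without middle 14 these 2 families had -0.06 and -0.04. Passenger strands, the partner strands usually degraded after the hairpin is cut, were tested for 14 of 118 on the array, and 12 were positive with a median of 0.06, against -0.28 and -0.19. Scaled to the labelling spike-ins, the medians were 0.05 for the miR-106b cluster, 0.02 for miR-23, miR-27 and miR-24, -0.03 for the miR-15/16 family, 0.08 for the miR-125 family and 0.02 for passenger strands. Under quantile normalization they were -0.03, 0.11, -0.01, 0.09 and -0.06 in the same order. Of the miRNAs linked to the aryl hydrocarbon receptor, 4 were on the array under their listed names. miR-96 was tested, at -0.09 (95% interval -0.80 to 0.63), and the other 3 were detected on no array. miR-212, listed without an arm, is on the array as miR-212-3p, which was looked up after its values were seen. It was detected on 5 arrays, with a difference of 0.04 (95% interval -0.14 to 0.21). Its values were at the floor on 3 arrays of each group, which narrows the interval.

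Markers of other liver cells were compared in the same way. With the percentile over probes detected on all arrays, none passed the test. All 5 tested bile duct miRNAs were negative with a median of -0.22. This median was 0.35 without low 3, which takes slide 1 out of the estimate, and 0.08 without middle 5. Their summed linear level, relative to the 75th percentile, ran from 0.377 to 1.45 in the low group and from 0.324 to 1.04 in the middle group, with the miR-200 arrays named above at the top. All 5 tested stellate and smooth muscle miRNAs were positive with a median of 0.25, from miR-199a-3p at 0.15 to miR-143 at 0.90. Their median was -0.13 with the percentile over all probes and -0.04 without scaling, and 0.10 under quantile normalization, 0.19 with the labelling spike-ins and 0.18 with the median over probes detected on all arrays. In linear terms their summed level was 0.601 to 0.731 in the low group and 0.603 to 1.13 in the middle group.

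Leukocyte miRNAs had a median of -0.01 over 5 tested of 8 on the array. Among them miR-223, the granulocyte miRNA, was at 0.07 and miR-142-3p, found in most blood cells, at -0.01. The leukocyte median was 0.01 without low 11, -0.46 with the percentile over all probes and -0.33 without scaling. Both tested endothelial miRNAs were negative, at -0.15 and -0.03. The erythroid miRNAs miR-451 and miR-144 varied widely from animal to animal, with miR-451 between 2.34 on middle 5 and 3.80 on middle 20, and differences of -0.05 and -0.21. Their median of -0.13 was 0.15 without low 3, 0.02 without middle 5 and 0.13 without middle 14. All 4 pancreas miRNAs were detected on no array, and of 5 muscle miRNAs none was tested. The imprinted Dlk1-Dio3 locus had 37 miRNAs on the array, 34 of them detected on none of the 9 arrays and 2 tested, miR-409-3p at 0.25 and miR-494 at 0.91. The miR-494 value came from middle 20 alone, at -1.81, with the other 3 middle dose arrays at the floor. The Sfmbt2 cluster families had 42 miRNAs on the array, of which 1 was tested.

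**Figure D5:**
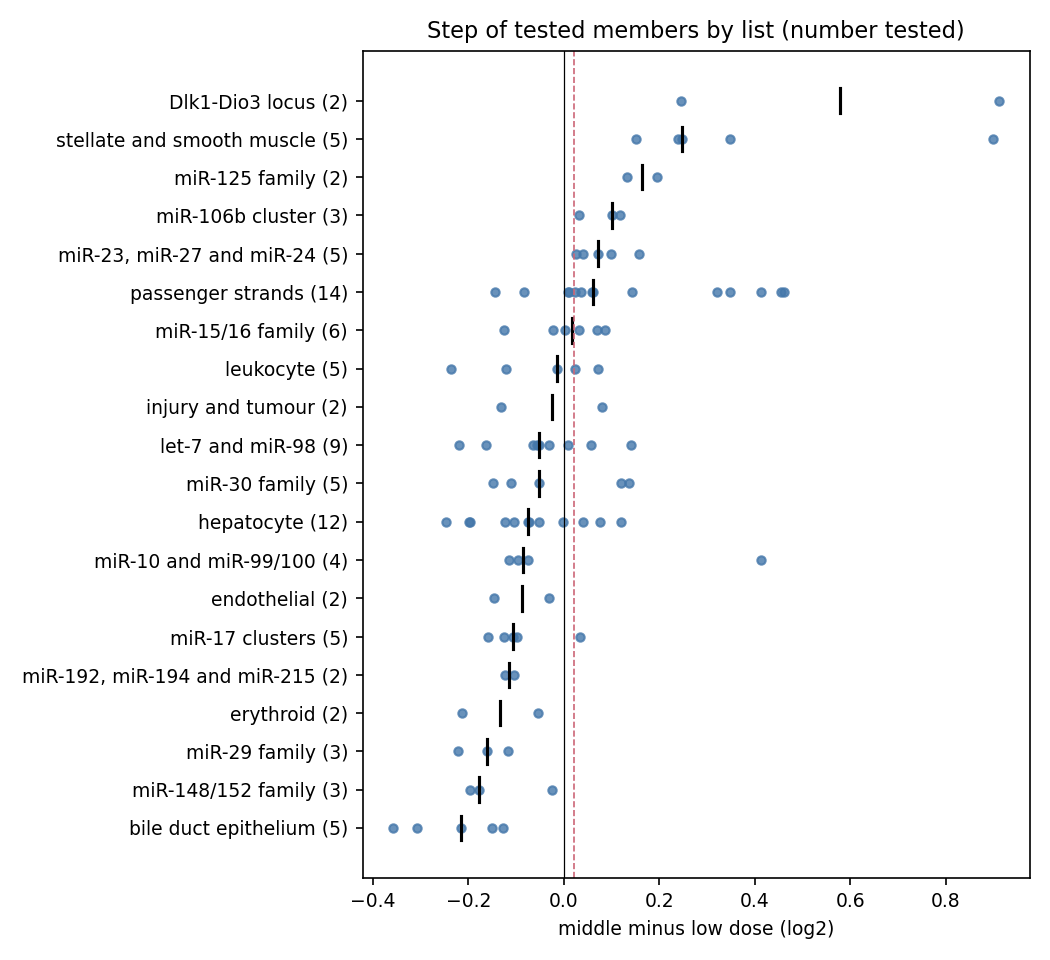
Difference between the doses (x axis, middle minus low, log2) of each tested member (points) and the list median (black bar) for lists with at least 2 tested members, with the number tested in brackets. The dashed line is the median of all 157, and no list other than the 2 Dlk1-Dio3 miRNAs has a median beyond 0.25 either way.

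Members of a seed family pair with overlapping sets of messenger RNAs, so the differences were also read by seed. A RefSeq mature sequence was matched for 90 of the 157 tested miRNAs, and 16 seeds were shared by at least 2 of them, 48 miRNAs in all. All members were positive for 3 seeds and negative for 7, and the signs were mixed for 6. miR-26a and miR-26b, whose printed sequences share the seed UCAAGUA and differ at 2 of 21 positions compared, had differences of -0.06 and -0.31. miR-10a and miR-10b, with the seed ACCCUGU, differ at 1 of 23 positions and had -0.12 and 0.41. miR-10b was close to the floor, between -4.67 and -3.82, and was detected on 5 arrays, while miR-10a was detected on all 9. The miR-29 miRNAs, which differ at 1 to 4 positions, lay within 0.10 of one another.

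More miRNAs were detected at the low dose than at the middle dose. All 9 arrays detected 125 of the 696 miRNAs, and 503 were found on no array. The low dose alone had 36 and the middle dose alone 2. A stricter form of this pattern, detection on at least 3 low dose arrays and on no middle dose array, held for 14 miRNAs, among them miR-125a-5p, miR-335-5p, miR-340-5p, miR-342-3p, miR-378* and miR-574-5p, and the reverse for 0. None of the 14 gave a fold above 1 against the lowest signal that counted as detected, so no fold is given for them, and the levels of those tested differed by -0.14 to 0.20. The middle dose arrays also had dimmer labelling spike-ins than the low dose arrays of their slide. On slide 3 middle 20 had a 75th percentile of signal of 278 and 147 miRNAs detected, low 24 had 203 and 155, and low 18 had 341 and 167. Their labelling spike-ins were at 10.44, 10.64 and 10.53 in the same order. The part of signal in these counts was not tested.

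Spread between animals differed among miRNAs detected on all 9 arrays. The residual SD, after slide and dose, was smallest for miR-29a at 0.038, miR-24 at 0.052, miR-30c at 0.056, miR-23b at 0.058 and miR-126-3p at 0.058. It was largest for miR-200b at 1.22, miR-200a at 1.21, miR-144 at 0.66, miR-143 at 0.63 and miR-2132_v15.0 at 0.61, beside a median of 0.15 over all tested. miR-30c shows what the slide block takes up. Its level was -2.11, -2.10 and -2.02 on the 3 arrays of slide 1 and -1.25 to -1.02 on the other 6. The dose groups lay within 0.17 of each other on every slide, and the difference was 0.12.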

How the data were processed

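Liver RNA (100 ng per array, Cyanine 3-pCp label, per the labels' protocols) was read on one-colour Agilent miRNA arrays. Per the file headers, Agilent Feature Extraction 10.7.3.1 wrote each spot's signal intensity after background subtraction, not scaled across arrays. The authors' deposited value table holds log2 values. Its columns correlated at r of 0.9895 to 0.9943 with the log2 median signal of their arrays over 636 matched miRNAs, and its medians of 5.04 to 5.06 leave its centring unknown. It served as an alternative.

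Of 14635 spots per array, 13920 were miRNA spots. Outlier spots were left out, the spots of each of 1937 probes averaged, and each array divided by its 75th percentile over 228 probes detected on all 9 arrays. Values under the floor of -4.67 were raised to it and log2 was taken. A miRNA was its brightest probe. It counted as detected where over 0.5 of a probe's spots were well above background. There were 0 saturated spots and 0 identical arrays.

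Differences were fitted with limma 3.58.1 in R 4.3.3 (lmFit, eBayes), slide as a fixed block, 5 residual degrees of freedom, two-sided, with Benjamini-Hochberg adjustment over 157 miRNAs. Standard errors and intervals are limma's. The procedure was tested on simulated data. Array measures and miR-34a also had exact permutation tests (126 arrangements, 27 within slides). The labels do not say more about separate animals than 1 sample number per array.

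Named were the 10 miRNAs with the smallest p each way, miR-34a, miR-122, miR-21, the 3 brightest members tested in each list, those of the detection pattern, and the 5 with the smallest and largest spread. The groups, lists and this rule were chosen with earlier results of these data known. Alternatives covered scaling, background, floor, filter, probes, blocks, all 19 arrays, the value table and leaving out each array. Without low 3, middle 14 or middle 20, 1 slide holds a single dose group, and its arrays do not enter the slide-blocked difference. For normexp the median spot signal was used, since the planned mean signal was not a column of these files. Mature sequences came from RefSeq's GRCm38.p6 table, matched by name.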

Additional observations from a re-analysis of the deposited data

Results flagged for a closer look

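In 166 groups of 4 or 5 arrays, formed by the 80 named and tested miRNAs and the array measures, 29 held an array far from the others, where chance gives about 1 in 20 for values with no floor. In 10 of the 29 every other array of the group was at the floor, so any value above it sets an array apart. Low 3 had 9 of these, low 24 had 6, middle 20 had 5, middle 14 had 4, middle 5 and middle 6 had 2 each, and low 18 had 1. The gap was measured without regard to slide.

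Low 3 was the highest low dose array for miR-34a (-0.62), miR-200a (-0.82), miR-200b (-0.88), let-7g (2.38) and miR-23a (0.92), and for miR-17* (-4.62), where the rest were at the floor. It was the lowest for miR-30c (-2.11) and miR-125b-5p (-0.33), which were also low on the 2 middle dose arrays of its slide, and for the labelling spike-ins (10.17).

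Middle 20 was the lowest middle dose array for miR-207 (-4.18), miR-298 (-3.86) and let-7f-1* (-3.63) and the highest for miR-93 (-2.36) and miR-494 (-1.81). Middle 14 was the lowest for miR-101a (-0.51) and miR-126-3p (1.44) and the highest for miR-125a-5p (-3.92) and miR-574-5p (-4.13). Low 24 was the lowest low dose array for miR-30a (1.05). Low 24 was the highest for miR-125a-5p (-4.41), miR-494 (-4.44), miR-409-3p (-4.45), miR-219-5p (-4.36) and miR-340-5p (-4.47), where the rest were at or near the floor of -4.67.

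The remaining arrays set apart were also within 0.2 of the floor. They were low 18 for miR-466f-3p (-4.50), middle 5 for miR-335-5p (-4.55) and miR-342-3p (-4.48), and middle 6 for miR-219-5p (-4.65) and miR-378* (-4.61).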

How the results depend on the processing

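No paired analysis was possible because the sample numbers in the titles are not shared between the groups. The counts of calls, 0 higher and 0 lower, were 1 higher and 69 lower with the 75th percentile over all probes, 0 and 3 with quantile normalization (miR-20b, miR-31 and miR-350, the last not covered by the naming rule), 1 and 0 with all 19 arrays (miR-34a), and 0 and 1 with the summed signal of the scanner software (miR-31), an alternative chosen after seeing the data. Leaving out 1 array at a time gave 0 to 9 higher and 0 to 2 lower. The 2 higher without low 3, where slides 2 and 3 alone give the difference, were miR-34a and miR-143. The 9 higher without low 24 were let-7f-1*, miR-149, miR-2138_v15.0, miR-290-3p, miR-291b-5p, miR-298, miR-700, miR-702 and miR-715, and the 2 lower were miR-26b and miR-31. miR-149, miR-291b-5p, miR-702 and miR-715 were likewise named after their values were seen. Every other setting gave 0 calls each way in limma, with 1 to 19 miRNAs higher and 0 to 29 lower at an unadjusted p under 0.05.

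The miR-34a difference was 1.00 with the percentile over all probes and 1.59 with all 19 arrays, both past the threshold, 0.78 with normexp, 0.85 in the value table, and 0.96 without middle 14 to 1.92 without low 3 when 1 array was left out. It was positive in every setting. miRNAs detected at the middle dose alone numbered 1 when all spots had to be above background, against 2. The sign of 27 of 79 other named miRNAs changed with the percentile over all probes and of 21 without scaling, which by construction move miRNAs above the floor by one amount, -0.44 and -0.32 for miR-34a and miR-26b. With normexp 26 changed sign, and the cause was not tested. With the array signal as a covariate 7 changed sign. Signal over background limits the dim miRNAs: with a floor 4 times higher the miR-31 and miR-207 differences were 0.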
